A study of Danio rerio with 2 samples.

Results

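The genes described here build the line along which a collagen chain passes through the secretory pathway: entry into the endoplasmic reticulum (ER), hydroxylation, folding, and export toward the Golgi. They were chosen by name, and 45 of the 46 names given for the set had a row in the gene tables of both libraries, among 35117 genes. The name without a row was plod3. Single-cell transcripts had been counted in 1 library from nkx3.2 mutant zebrafish (genotype nkx3.2 el802/el802, 22 days post fertilization) and 1 library from wild-type (WT) zebrafish (21 days). The protocol text gives 21 days for both. All animals carried the transgenes Tg(fli1a:EGFP)y1 and Tg(sox10:DsRed)el10, and the cells captured were live cartilage cells sorted for both reporters, so cells with only 1 reporter were not sampled. How many animals were pooled is not given in the sources used here. The labels name no tissue-limited allele, and the protein made from nkx3.2 is a homeodomain regulator known for its role at the jaw joint.

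Collagen chains enter the ER through the Sec61 translocon, where prolyl 4-hydroxylases stabilise the future triple helix and lysyl hydroxylases prepare cross-links and sugar attachment. Prolyl isomerases and the collagen chaperone Hsp47 (serpinh1b) then guide folding, and COPII-coated carriers take the large procollagen out of the ER. In zebrafish, mutants of the COPII genes sec23a (crusher) and sec24d (bulldog), and of creb3l2 (feelgood), are known for collagen held back in chondrocytes. For that reason the members were put in 7 steps: hydroxylation and glycosylation (9 genes), folding (8), translocon and entry (10), COPII coat (8), cargo receptors and retrieval (6), regulators (2) and procollagen processing (2).

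In the mutant library 2005 cells gave 16349558 UMIs (unique molecular identifiers, each standing for 1 captured transcript), at a median of 7005 per cell. In the WT library 2057 cells gave 13927936, at a median of 5781. After doublet calls and globin-rich cells were set apart, 1996 mutant and 2051 WT cells were left, and the libraries shared 4 barcodes. The nkx3.2 transcript stood at 41.5 CPM (UMIs of a gene scaled by all UMIs of the same cells) in the mutant library and 45.6 CPM in the WT library, which does not check the genotype, because the kit reads the 3′ end and the labels do not place the lesion. Ribosomal protein genes took 49.9% of mutant UMIs and 44.6% of WT UMIs. With 1 library for each genotype no test of the difference could be made; all intervals are 95% intervals of counting error only, and a ratio is mutant over WT.

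Cells were gated on marker genes, none of them a member, into 9 groups named by the gate genes. Cells left over after gates on mmp13b, on the bone matrix genes ifitm5 and bglapl, on col10a1a and on ccl25b were ranked by matn1, a cartilage matrix gene, and cut into 3 bins of equal size within each library. The cuts fell at 0.159% and 0.668% of a cell's UMIs in the mutant library and at 0.196% and 0.932% in the WT library. Bins of the same name were thus not matched for matn1 between libraries. The matn1-high bin held 608 mutant and 595 WT cells, and the matn1-middle bin 607 and 595. The lowest bin was split into fibrous gene cells (col5a1, postnb, mfap2; 124 mutant and 215 WT), fn1b cells (105 and 75) and the remaining matn1-low cells (379 and 305). The small groups were mmp13b cells (47 mutant, 90 WT), col10a1a cells (46 and 83), ccl25b cells (65 and 54) and bone matrix gene cells (12 and 30), the last too few for a ratio between genotypes. In matn1-high cells, 11 of 11 chondrocyte markers were seen in both libraries, summing to 52701 CPM in mutant and 81511 CPM in WT cells. Of 8 leukocyte markers 1 was seen there, at 0.346 CPM in mutant and 0.202 CPM in WT cells, and of 6 endothelial markers only fli1a, the gene whose promoter drives the sorting reporter, at 39.6 and 27.7 CPM. Epidermis markers summed to 46.9 CPM in mutant and 64.3 CPM in WT matn1-high cells, and muscle markers to 9.0 and 35.4 CPM. In matn1-low cells epidermis markers stood higher, at 930 CPM in the mutant and 1806 CPM in WT.

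Among the cells ranked by matn1, the machinery was most abundant where cartilage matrix genes were. Summed over the 45 genes, its level in matn1-high cells was 10120 CPM in the mutant and 13512 CPM in WT. In matn1-low cells it was 5941 and 7828 CPM. Matn1-high cells thus exceeded matn1-low cells 1.70-fold (1.67 to 1.74) in the mutant library and 1.73-fold (1.69 to 1.76) in the WT library. Hydroxylation spread farthest between these groups, 2.89-fold (2.64 to 3.18) in the mutant and 2.94-fold (2.70 to 3.19) in WT, followed by the COPII coat at 2.48-fold (1.99 to 3.14) and 2.34-fold (1.93 to 2.87). The translocon step differed by 1.57-fold (1.53 to 1.61) in the mutant and 1.71-fold (1.66 to 1.76) in WT. Matn1-high and matn1-low cells also differed in depth, with a median of 9194.5 against 4213 UMIs per cell in the mutant and 7708 against 3702 in WT; the part of depth in these ratios was not tested beyond the thinned values given later for col2a1a.

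**Figure D1:**
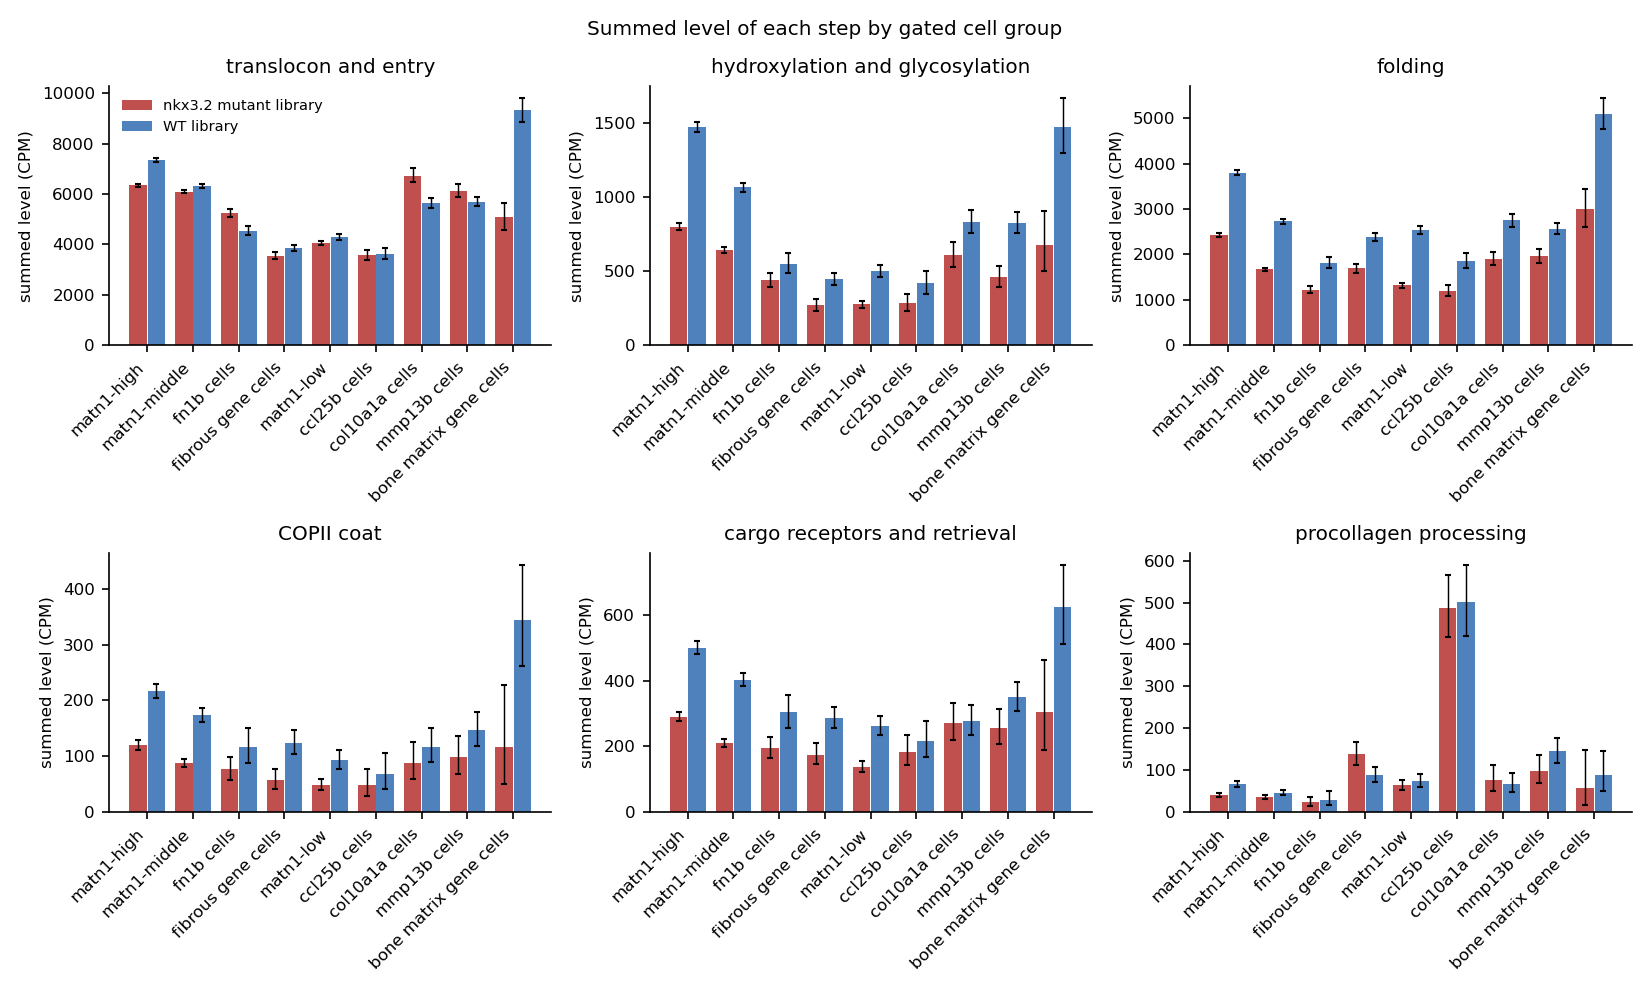
Summed level of 6 of the steps (CPM of the group's UMIs, linear axis from 0) in the 9 gated cell groups, mutant library in red to the left of the WT library in blue; bars are 1 library each and whiskers are 95% Poisson intervals of counting error. Hydroxylation stands at 799 CPM in mutant and 1474 CPM in WT matn1-high cells, while the translocon panel stands at 6352 and 7342 CPM there; procollagen processing peaks in ccl25b cells, at 487 and 501 CPM.

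The WT bone matrix gene cells stood above all other groups, at 17036 CPM for the module from 30 cells, against 9295 CPM from 12 mutant cells. Those 12 mutant cells had 116 CPM of col2a1a, whereas the 30 WT cells had 7796 CPM, so the 2 sets of cells also differed in cartilage transcripts. In WT bone matrix gene cells serpinh1b reached 1765 CPM and p4hb, the disulfide isomerase that is the common subunit of prolyl 4-hydroxylase, 862 CPM. Fibrous gene cells and ccl25b cells lay at the low end, with modules of 5938 and 5805 CPM in the mutant and 7233 and 6730 CPM in WT. The counts are of 3′ ends and carry no length effect, so CPM of different genes may be set side by side up to capture efficiency.

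Of the members measured in matn1-high cells, all but 3 were higher there than in matn1-low cells in both libraries. The same share over all genes was not computed, so this count has no background beside it. Between matn1-high and matn1-low cells, kdelr3, a receptor that returns escaped ER proteins, differed 7.93-fold (3.56 to 21.9) in the mutant and 4.56-fold (2.72 to 8.26) in WT. The prolyl isomerase gene fkbp11 differed 6.87-fold (4.44 to 11.2) in the mutant and 5.74-fold (4.12 to 8.26) in WT, and rcn3, an ER calcium-binding protein gene, 6.81-fold (4.998 to 9.515) and 5.37-fold (4.21 to 6.95). The collagen chaperone gene serpinh1b went the other way, with 318 CPM in matn1-high and 577 CPM in matn1-low mutant cells, a ratio of 0.551 (0.510 to 0.595), and 743 and 1448 CPM in WT cells, a ratio of 0.513 (0.485 to 0.543). The 2 groups richest in matn1 thus held less serpinh1b than matn1-low cells in both libraries, with 216 CPM in mutant and 717 CPM in WT matn1-middle cells. The lysyl hydroxylase gene plod2, known for hydroxylating collagen telopeptides, was highest in col10a1a cells, at 47.1 CPM in the mutant (16 UMIs) and 68.7 CPM in WT (37 UMIs), and stood at 3.46 and 7.89 CPM in matn1-high cells. The procollagen C-proteinase enhancer gene pcolcea was highest in ccl25b cells, at 473 CPM in the mutant and 472 CPM in WT, and lowest in matn1-high cells, at 2.94 and 4.45 CPM. Its partner bmp1a, the C-proteinase itself, had the reverse order, with 36.2 CPM in mutant and 60.7 CPM in WT matn1-high cells against 9.88 and 20.2 CPM in matn1-low cells.

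**Figure D2:**
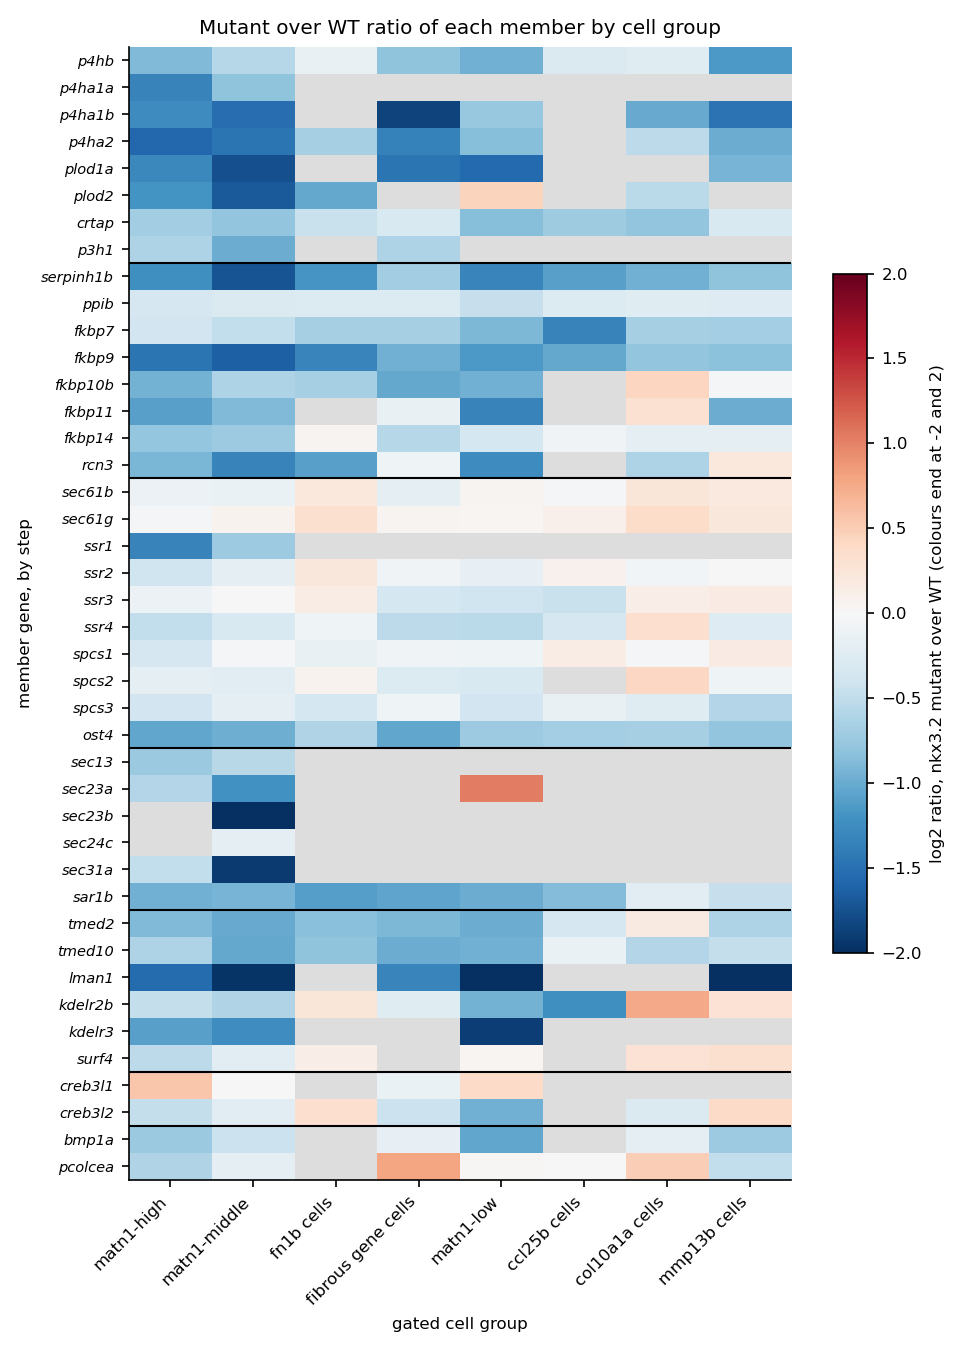
Log2 ratio of mutant over WT (colour) of each member (rows, by step) in the 8 groups with at least 30 cells per library (columns); grey cells had under 20 UMIs over both libraries and were not measured. The rows of serpinh1b, fkbp9 and ost4 are lower by 1.5-fold or more in every one of the 8 groups, and the row of sec61g is below 0 in 1 of the 8. Other rows, among them p4hb and ppib, are also below 0 in all 8 groups. The share of all genes below 0, or past that fold, in every group was not computed.

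In matn1-high cells the steps differed in how far the mutant lay below WT. These were not cells of like matn1 level, since matn1 stood at 10850 CPM in the mutant and 17668 CPM in WT. Hydroxylation and glycosylation summed to 799 CPM in the mutant and 1474 CPM in WT, a ratio of 0.542 (0.523 to 0.563), and the COPII coat to 120 and 216 CPM, a ratio of 0.555 (0.504 to 0.611). Cargo receptors and retrieval stood at 290 CPM in the mutant and 499 CPM in WT (0.581, 0.546 to 0.619), and folding at 2425 and 3804 CPM (0.638, 0.624 to 0.652). The translocon step was nearest to WT, at 6352 and 7342 CPM, a ratio of 0.865 (0.853 to 0.878). These orders rest on sums in which a few genes weigh most: sec61g gave 49.5% of the translocon UMIs in mutant and 44.0% in WT cells, ppib 65.1% and 52.7% of folding, and sar1b 62.4% and 67.3% of the COPII coat. Without its most abundant gene, the folding step had a log2 ratio of -1.09 in place of -0.65, and by the median of its genes hydroxylation had -1.23 in place of -0.88. The translocon step had -0.35 by the median of its genes in place of -0.21, and all 10 of them were below WT. Col2a1a itself stood at 14011 CPM in the mutant and 23160 CPM in WT, a ratio of 0.605 (0.5996 to 0.610), so the cargo was lower as well.

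Of the 45 members, 40 were measured in matn1-high cells (at least 20 UMIs over both libraries), and 24 of them were lower in the mutant by 1.5-fold or more. None was higher by that fold, and 39 of the 40 had a ratio below 1. Over all 7792 genes measured in these cells, 16.9% were lower by that fold and 19% higher. The median log2 ratio was -0.72 over the members and 0.01 over all genes. By step, the lower genes were 8 of 8 measured in hydroxylation, 6 of 8 in folding, 2 of 10 in the translocon, 2 of 4 in the COPII coat, 4 of 6 in cargo receptors and retrieval, 0 of 2 regulators and 2 of 2 in processing.

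**Figure D3:**
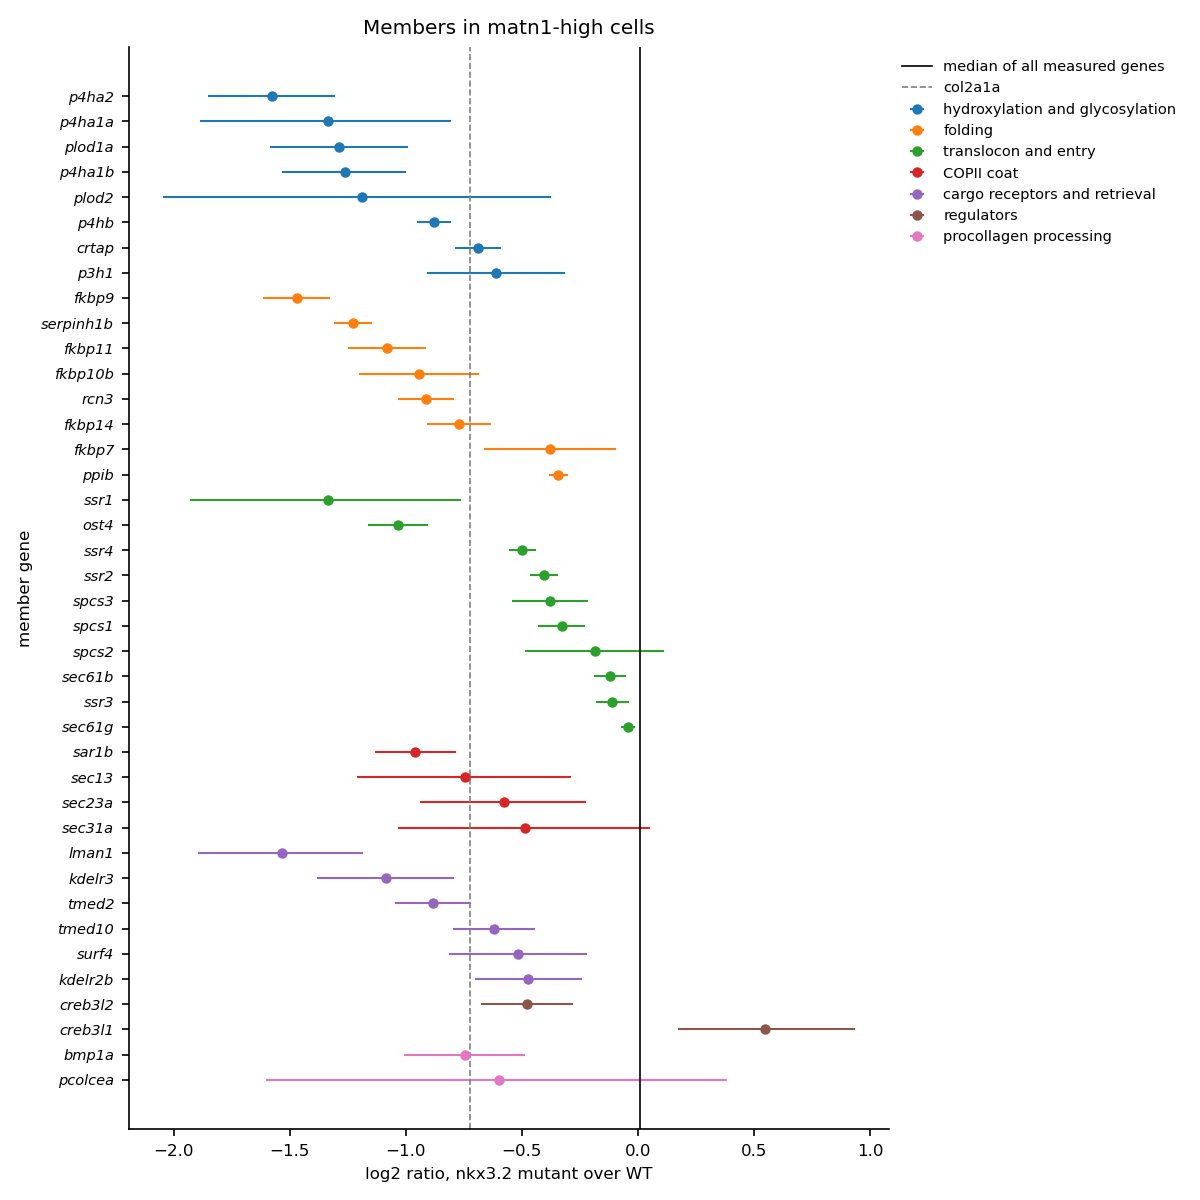
Log2 ratio of mutant over WT in matn1-high cells for the 40 measured members, grouped and coloured by step; points are 1 library against 1 library and bars are 95% intervals of counting error. The solid line marks the median of all genes (0.01) and the dashed line col2a1a (-0.73); the 8 hydroxylation genes lie between -1.58 and -0.61, and sec61g lies at -0.04.

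Among the hydroxylation genes of matn1-high cells, the catalytic prolyl 4-hydroxylase subunits had lower ratios than their shared subunit. This order was not seen in matn1-low cells, where the shared subunit p4hb stood at 154 CPM in the mutant and 298 CPM in WT. There p4ha2 had 17.0 and 30.8 CPM (31 and 38 UMIs), and p4ha1b 7.69 and 12.95 CPM (14 and 16 UMIs). In matn1-high cells p4ha2 stood at 27.0 CPM in the mutant and 80.5 CPM in WT, a ratio of 0.335 (0.277 to 0.405), the lowest of the step. Its relatives p4ha1b (30.3 and 72.6 CPM, ratio 0.417, 0.346 to 0.501) and p4ha1a (7.61 and 19.2 CPM, ratio 0.396, 0.271 to 0.572) lay nearby. The shared subunit p4hb stood at 427 CPM in the mutant and 785 CPM in WT, a ratio of 0.544 (0.517 to 0.572), which does not overlap the intervals of p4ha2 and p4ha1b. The lysyl hydroxylase gene plod1a had 24.4 CPM in the mutant and 59.4 CPM in WT, a ratio of 0.410 (0.333 to 0.503). In matn1-high cells the 3-hydroxylation complex was nearer to WT: crtap, its scaffold, stood at 251 and 405 CPM (0.620, 0.579 to 0.664), and p3h1, its enzyme, at 28.9 and 44.1 CPM (0.655, 0.533 to 0.805). Other groups lay farther from WT, with a log2 ratio of -0.86 for crtap in matn1-low cells and -0.99 for p3h1 in matn1-middle cells. The ratio of crtap nearest to WT was in fibrous gene cells, at a log2 of -0.30. The galactosyltransferase gene colgalt1 had 0 UMIs in mutant and 2 in WT matn1-high cells and could not be judged at this depth.

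The remaining partner of that complex, the cyclophilin B gene ppib, was the most abundant folding member, with 1579 CPM in the mutant and 2004 CPM in WT, a ratio of 0.788 (0.766 to 0.811). The other folding genes reached lower ratios. The chaperone gene serpinh1b had 318 CPM in the mutant and 743 CPM in WT, a ratio of 0.428 (0.404 to 0.452), and fkbp9, a prolyl isomerase of the ER, had 96.7 and 268 CPM, a ratio of 0.361 (0.327 to 0.399), the lowest of the step. The calcium-binding protein gene rcn3 had 157 CPM in the mutant and 295 CPM in WT, a ratio of 0.532 (0.489 to 0.578). Ratios of fkbp11, fkbp10b (FKBP65) and fkbp14 were 0.473, 0.521 and 0.586, and that of fkbp7 was 0.769 (0.631 to 0.937). All 8 folding genes were thus below WT, over a range from 0.361 to 0.788.

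In the translocon step, the Sec61 gamma subunit gene sec61g was close to equal, at 3141 CPM in the mutant and 3233 CPM in WT, a ratio of 0.971 (0.951 to 0.992). Genes of the translocon-associated protein complex lay lower, with ssr4 at 777 and 1097 CPM (0.708, 0.680 to 0.737) and ssr2 at 716 and 947 CPM (0.756, 0.725 to 0.789), but ssr3 had a ratio of 0.926 (0.882 to 0.973). The signal peptidase genes spcs1, spcs2 and spcs3 had ratios of 0.796, 0.879 and 0.768. The exceptions were ssr1, at 6.57 CPM in the mutant and 16.6 CPM in WT (0.396, 0.263 to 0.589), and ost4, a small subunit of the oligosaccharyl transferase, at 130 and 267 CPM (0.489, 0.446 to 0.535).

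Of the COPII genes, sar1b, whose GTPase starts coat assembly, stood at 74.9 CPM in the mutant and 146 CPM in WT, a ratio of 0.515 (0.456 to 0.580). The inner coat gene sec23a had 20.6 CPM in the mutant and 30.7 CPM in WT (0.670, 0.522 to 0.857). The outer coat genes sec13 and sec31a had ratios of 0.596 (0.432 to 0.819) and 0.713 (0.489 to 1.04), and the last interval includes 1. The genes sec23b, sec24c, sec24d and sar1ab had 1 to 13 UMIs per library and were not measured; sec24d had 3 UMIs in mutant and 13 in WT cells. Among cargo receptors, lman1 (ERGIC-53, a lectin that ferries glycoproteins) stood at 16.3 CPM in the mutant and 47.1 CPM in WT, a ratio of 0.345 (0.269 to 0.440). The p24 carrier genes tmed2 and tmed10 had 86.7 and 80.96 CPM in the mutant against 160 and 124 CPM in WT, with ratios of 0.542 (0.484 to 0.607) and 0.651 (0.576 to 0.735). The KDEL receptor genes differed, kdelr3 with 0.471 (0.384 to 0.577) and kdelr2b with 0.721 (0.615 to 0.846), and surf4 had 0.699 (0.569 to 0.858).

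The regulators creb3l1 and creb3l2 encode ER-anchored transcription factors known for raising secretory genes. They pointed apart: creb3l1 had 27.5 CPM in mutant and 18.8 CPM in WT matn1-high cells, a ratio of 1.46 (1.13 to 1.91), and creb3l2 had 66.6 and 92.8 CPM, a ratio of 0.718 (0.625 to 0.824). creb3l1 was the 1 measured member above WT in these cells. In processing, bmp1a had 36.2 CPM in the mutant and 60.7 CPM in WT, a ratio of 0.596 (0.497 to 0.714), and pcolcea, from 17 and 22 UMIs, a ratio of 0.661 (0.330 to 1.30).

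Genes of the wider pathway were read in the same cells against the same 16.9% lower and 19% higher of all genes. Of 16 measured ER chaperone genes, 13 were lower by 1.5-fold and 0 higher. The Hsp70 chaperone hspa5 (BiP) had 71.3 CPM in the mutant and 117 CPM in WT, a ratio of 0.607 (0.533 to 0.690), and the disulfide isomerase gene pdia6 had 19.5 and 64.7 CPM, a ratio of 0.302 (0.242 to 0.376). The most abundant chaperone of the list, pdia3, stood at 548 CPM in the mutant and 595 CPM in WT, 0.922 (0.876 to 0.969), so the list did not move as 1 block. Of 9 oligosaccharyl transferase genes, 5 were lower, among them dad1 at 0.653 (0.614 to 0.694), ostc at 0.431 (0.381 to 0.487) and ddost at 0.421 (0.350 to 0.504), while magt1 was at 1.13 (1.02 to 1.25). Of 16 genes of COPI coats and Golgi-to-ER return, 10 were lower and 2 higher, copz1 at 1.74 (1.26 to 2.42) and tmed7 at 2.93 (1.23 to 8.06). Among the 10 lower were the p24 gene tmed9, at 50.7 CPM in the mutant and 95.6 CPM in WT (0.530, 0.457 to 0.614), and the KDEL receptor gene kdelr2a, at 41.7 and 92.6 CPM (0.450, 0.384 to 0.527).

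Smaller shares were lower in 3 lists. Of 12 further COPII and ER exit site genes, 3 were lower, among them mia3 (TANGO1, which loads procollagen into carriers) at 6.23 CPM in the mutant and 11.7 CPM in WT, a ratio of 0.531 (0.340 to 0.819). Of 11 further translocon and signal recognition genes, 3 were lower, and sec11a, the catalytic signal peptidase subunit, had the lowest ratio, 0.421 (0.358 to 0.495); sec61a1, the channel itself, had 0.905 (0.858 to 0.955). Of 14 other collagen enzymes and processing genes, 4 were lower: serpinh1a, fkbp10a, p3h4 and pcolce2a. The most abundant of that list, pcolceb, stood at 1464 CPM in the mutant and 1629 CPM in WT (0.898, 0.871 to 0.926). The cargo stood farther from the background, with 10 of 17 measured rows of collagen genes lower and 1 higher. Beside col2a1a, col9a3 had 6556 CPM in the mutant and 9954 CPM in WT (0.659, 0.650 to 0.667), and the gene higher was col1a2, with 18.9 CPM in the mutant and 8.69 CPM in WT, a ratio of 2.17 (1.51 to 3.16). Of 7 ER stress regulators, 3 were lower, atf4b, atf6 and ddit3, the last at 32.2 CPM in the mutant and 79.1 CPM in WT (0.407, 0.340 to 0.486), and xbp1 had 600 and 860 CPM (0.697, 0.666 to 0.729).

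The difference was not limited to the bin richest in matn1. Members lower by 1.5-fold were 24 of 42 measured in matn1-middle cells (23.2% of all genes there), 20 of 35 in matn1-low cells (25.7%), 14 of 32 in fibrous gene cells (26.1%) and 11 of 26 in fn1b cells (25.3%). They were 12 of 31 in mmp13b cells (29.3%), 7 of 20 in ccl25b cells (20.4%) and 7 of 30 in col10a1a cells (22.5%), the last being close to the share of all genes. Members higher by that fold were kdelr2b in col10a1a cells (11.8% of all genes there), pcolcea in fibrous gene cells (8.91%) and sec23a in matn1-low cells (11.8%), and 0 in matn1-high, matn1-middle (18%), fn1b (13.4%), mmp13b (9.79%) and ccl25b cells (10.4%). Over all cells of a library, 28 of 43 measured members were lower and 0 higher, against 22.3% and 13.8% of 11522 genes.

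Across the 8 groups, serpinh1b, fkbp9 and ost4 were lower in the mutant by 1.5-fold or more in 8 of 8. Split by hsp70 UMIs as described later, serpinh1b was lower by that fold in 21 of 24 strata, not all with intervals that exclude 1. Groups and strata are cells of the same pair of libraries and not replicates. For all genes, the share lower in every group or stratum was not computed. The serpinh1b ratio ran from 0.301 (0.282 to 0.322) in matn1-middle cells, with 216 CPM in the mutant and 717 CPM in WT, to 0.617 (0.551 to 0.689) in fibrous gene cells, with 637 and 1033 CPM. For lman1, 5 of 5 groups measured were lower by that fold. Cyclophilin B (ppib) was below WT in 8 of 8 groups but never by 1.5-fold. Its log2 ratio stayed between -0.46 and -0.25. Against these, sec61g was below WT in 1 of 8 groups, and in col10a1a cells it stood at 3834 CPM in the mutant and 2961 CPM in WT, a ratio of 1.29 (1.20 to 1.39). sec23a was measured in 3 groups and split, with 0.430 (0.317 to 0.580) in matn1-middle cells and 2.04 (0.703 to 7.16) in matn1-low cells, the second from 15 and 5 UMIs.

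By step, hydroxylation, folding, the COPII coat and cargo receptors summed lower in the mutant in each of the 8 groups, and for hydroxylation and folding this sign held under every alternative run. For the COPII coat and cargo receptors, the counting intervals of the log2 ratio include 0 in col10a1a and in ccl25b cells. With ribosomal protein and mitochondrial genes left out of the scale, cargo receptors in col10a1a cells turned from -0.03 to 0.07. That ratio turned in other runs too, among them to 0.23 by the median of its genes and to 0.23 without its most abundant gene. In cells with 0 hsp70 UMIs (hsp70 genes mark heat shock and other stress), the COPII coat in col10a1a cells turned to 0.067 (16 mutant and 14 WT UMIs), and cargo receptors to 0.062 in col10a1a cells and 0.28 in ccl25b cells (15 and 10 UMIs). The COPII coat also turned to 0.29 in fn1b cells without its most abundant gene and to 0.015 in matn1-low cells by the median of its genes. The log2 ratios of the 4 steps over matn1-middle cells were -0.72, -0.70, -0.99 and -0.94, and over matn1-low cells -0.86, -0.94, -0.93 and -0.94. The sum of the translocon step lay near 0, from -0.21 in matn1-high cells to 0.26 in col10a1a cells. By the median of its genes it was -0.35 and 0.13 in these groups. In matn1-middle cells (-0.06) and matn1-low cells (-0.08) the sign of the sum turned positive on the scale without ribosomal protein and mitochondrial genes, to 0.08 and 0.05. The translocon step was also taken as the scale, although it had its own log2 ratio of -0.21 in matn1-high cells. Hydroxylation there had 0.126 UMIs per translocon UMI in the mutant and 0.201 in WT, a log2 difference of -0.67. The same difference was -0.44 for folding and -0.64 for the COPII coat.

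The relation of the machinery to its main cargo was then described cell by cell in the matn1-high, matn1-middle, fn1b and matn1-low groups, 1699 mutant and 1570 WT cells. Both quantities were taken as CPM of a reduced total that leaves out members, matrix, ribosomal protein and mitochondrial genes, and cells were also ranked by col2a1a into 5 bins of equal size. Spearman's rho between col2a1a and the module was 0.70 over mutant and 0.75 over WT cells. Per all UMIs it was 0.61 and 0.64, and within matn1-high cells alone 0.39 and 0.32. Both quantities have the same divisor in each cell, and the part of that in rho was not tested. The points of a library share its preparation and differ in depth, and rho of col2a1a with the UMIs per cell was 0.42 and 0.49. Cells with more col2a1a had more of most members in both libraries: the module in the highest bin was 2.10-fold (2.06 to 2.15) that of the lowest bin in the mutant and 2.40-fold (2.35 to 2.46) in WT. With every cell thinned to 3000 UMIs, which 1558 mutant and 1373 WT cells reached, the log2 ratios were 1.104 in the mutant and 1.21 in WT, against 1.07 and 1.26 unthinned. Within matn1-high cells alone they were 0.54 and 0.47.

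The steps followed col2a1a to different extents. Hydroxylation differed 3.79-fold (3.45 to 4.17) between the highest and lowest bin in the mutant and 4.21-fold (3.89 to 4.58) in WT. The COPII coat differed 3.32-fold (2.65 to 4.20) and 2.75-fold (2.30 to 3.31), folding 2.83-fold (2.70 to 2.97) and 2.28-fold (2.19 to 2.37), and the translocon 1.78-fold (1.74 to 1.83) and 2.26-fold (2.19 to 2.32). Cargo receptors differed 2.78-fold and 2.41-fold. Within matn1-high cells alone the order was another. Hydroxylation differed there 2.03-fold (1.83 to 2.26) in the mutant and 1.72-fold (1.59 to 1.86) in WT. The COPII coat differed 1.97-fold (1.52 to 2.57) and 1.88-fold (1.51 to 2.34), and cargo receptors 2.53-fold (2.12 to 3.04) and 1.51-fold (1.32 to 1.73). Values of single genes are again over the matn1-high, matn1-middle, fn1b and matn1-low groups together, and were not taken within matn1-high cells. Some went farther than the steps, p3h1 with 15.1-fold (6.30 to 47.5) in the mutant and 10.5-fold (5.37 to 23.4) in WT. For kdelr3 the ratios were 10.6-fold (4.99 to 27.0) and 14.3-fold (7.09 to 33.6). The chaperone gene serpinh1b did not rise with col2a1a, with rho of -0.03 in the mutant and -0.13 in WT. Its ratio of the highest to the lowest bin was 0.933 (0.848 to 1.03) in the mutant. In WT that ratio was 0.692 (0.644 to 0.743), so there serpinh1b was lower in cells with more col2a1a. Its rho with the UMIs per cell was -0.34 and -0.29. Ppib, a folding partner, had rho of 0.69 and 0.73. The enhancer gene pcolcea went against col2a1a, at 0.058 (0.026 to 0.114) in the mutant and 0.127 (0.064 to 0.232) in WT.

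**Figure D4:**
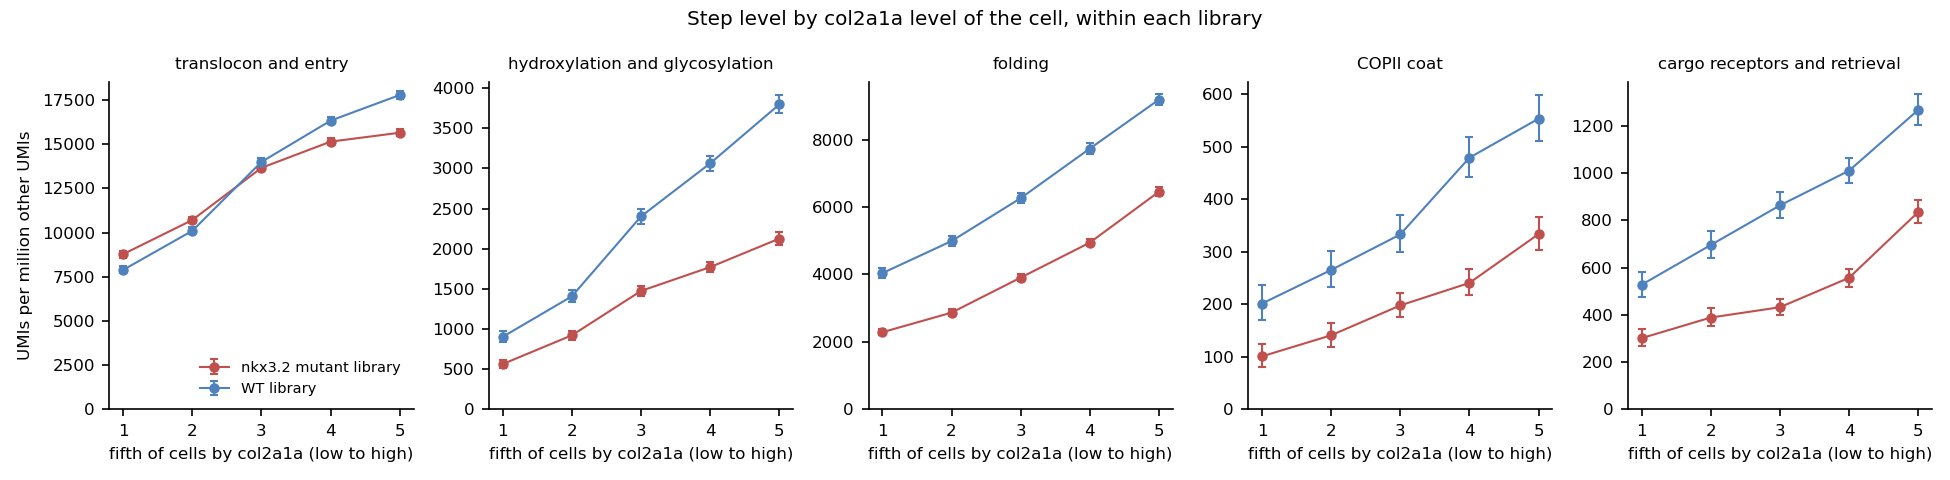
Level of 5 steps (CPM of the reduced total; linear axes from 0) in 5 equal bins of cells by col2a1a within each library, mutant in red and WT in blue, with 95% Poisson intervals of counting error. From the lowest to the highest bin every line climbs, by 3.79-fold in the mutant and 4.21-fold in WT for hydroxylation; the bins of the 2 libraries do not hold equal col2a1a, with 43341 CPM in the highest mutant bin and 70024 CPM in the highest WT bin.

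Because the mutant cells carried less col2a1a, cells were also ranked into 5 bins over both libraries together, so that mutant and WT cells of like col2a1a could be set side by side. The lowest bin held 397 mutant and 257 WT cells, and the highest 156 and 497. Hydroxylation was lower in the mutant in 5 of 5 bins, with log2 ratios of -0.58, -0.32, -0.54, -0.53 and -0.58 from the lowest bin to the highest. Folding had -0.69, -0.67, -0.58, -0.37 and -0.23, and the COPII coat -0.95, -0.67, -0.64, -0.58 and -0.42, so both lay closer to WT in bins with more col2a1a. The translocon step had 0.21, 0.26, 0.07, 0.00 and -0.09. Within the highest bin col2a1a still differed, with 52650 CPM of the reduced total in mutant and 60920 CPM in WT cells, a ratio of 0.864 (0.853 to 0.875). From the lowest bin up, its ratio in the other bins was 0.916 (0.832 to 1.01), 0.904 (0.873 to 0.937), 1.08 (1.06 to 1.11) and 0.949 (0.936 to 0.962). The bins thus matched col2a1a in part only.

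**Figure D5:**
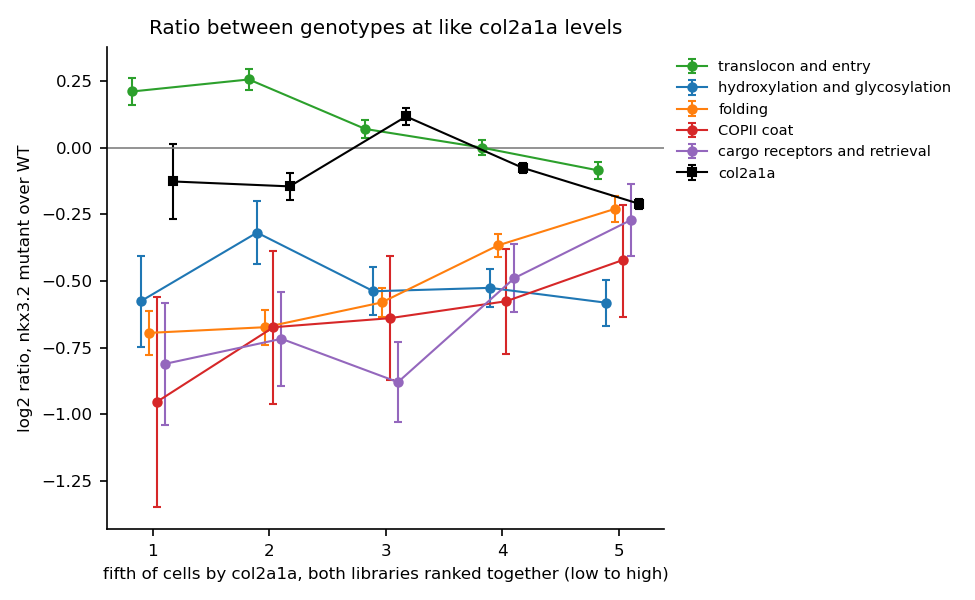
Log2 ratio of mutant over WT for steps in 5 equal bins of cells by col2a1a pooled over both libraries (x axis, low to high), with 95% intervals of counting error; the black line is col2a1a itself in the same cells. Hydroxylation stays between -0.58 and -0.32, folding narrows from -0.69 to -0.23, and the translocon step lies between 0.26 and -0.09.

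Transcripts of hsp70 genes, which heat shock and other stress are known to induce along with serpinh1b, also differed between libraries. The 4 hsp70 genes summed lower in the mutant in 6 of 8 groups, among them matn1-high cells, with 272 CPM in mutant and 422 CPM in WT cells, and col10a1a cells, with 315 and 931 CPM, a ratio of 0.338 (0.272 to 0.417). They summed higher in mmp13b cells, at 2195 CPM in the mutant and 1353 CPM in WT, a ratio of 1.62 (1.47 to 1.79), and in fn1b cells the ratio was 1.07 (0.895 to 1.29). In matn1-high cells with 0 hsp70 UMIs, serpinh1b stood at 272 CPM in the mutant (254 cells) and 673 CPM in WT (238 cells), a ratio of 0.404 (0.368 to 0.443). In cells with 5 or more it stood at 506 CPM in the mutant and 935 CPM in WT, a ratio of 0.541 (0.481 to 0.608), so serpinh1b was higher with hsp70 in both libraries and lower in the mutant in both strata. Over 8 groups and 3 strata of 0, 1 to 4 and 5 or more hsp70 UMIs, serpinh1b was below WT in 24 of 24. These strata are cells of the same pair of libraries, and the share of all genes below WT in every stratum was not computed. The part of stress in the serpinh1b difference was not tested. The 1.5-fold difference was not met in fibrous gene cells with 0 (566 CPM in the mutant and 657 CPM in WT, ratio 0.861, 0.645 to 1.15), or in col10a1a and ccl25b cells with 5 or more, at 0.823 (0.577 to 1.15) and 0.710 (0.533 to 0.943). Ribosomal protein genes took 49.7% of UMIs in mutant and 44.6% in WT matn1-high cells. Leaving them and mitochondrial genes out of the scale moved every log2 ratio in these cells up by the same amount, with a median of 0.13 over all steps and groups. On that scale hydroxylation had -0.75, folding -0.52, the COPII coat -0.72 and the translocon -0.08 in matn1-high cells, and 20 members were lower and 1, creb3l1, higher by 1.5-fold. The share of all genes past the fold was not computed on that scale, so this count has no background beside it. Age (22 against 21 days), preparation and genotype cannot be told apart with 1 library each.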

How the data were processed

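Live cells positive for fli1a:eGFP and sox10:DsRed had been captured with the 10x Genomics 3′ kit, per the labels' protocols. The deposited matrices hold whole-number UMI counts per gene and barcode, made with Cell Ranger per the submitters' processing notes; its version and the genome build are not given in the sources used here, and coordinates and sequences are therefore not printed. Genes are called by the symbols deposited with the matrices, and 4218 rows had a symbol that occurs more than once. Counts of genes past a fold took each row apart, whereas gates and values of a named gene summed all rows with its symbol. The 45 members had 45 rows, so no member was such a sum.

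Cells needed at least 500 UMIs, 300 genes and at most 20% mitochondrial UMIs, which removed 0. Scrublet in Scanpy 1.11.5 called 9 mutant and 3 WT doublets, too low a share to remove doublets of like cells, and 0 mutant and 3 WT cells had over 5% globin UMIs; all were left out. Each cell went to the first gate met, at 5 UMIs of the gate genes (mmp13b at most 1 for the bone matrix gene and col10a1a gates), and 3 mutant and 9 WT cells fell in no group. UMIs were summed per group and library and divided by the group total (CPM). Sums have exact Poisson and ratios exact conditional binomial intervals at 95%; UMI counting leaves variation between animals and captures out of them. For ratios a count under 3 was set to 3, and genes needed 20 UMIs. The by-cell measures, the relation to col2a1a and the pooled bins, leave 19 matrix genes out of the scale. The ratio and its interval were tested on simulated Poisson counts, the model that the interval assumes. The simulation held no variation between cells, animals or captures, so it checks the computation alone and not the fit of the intervals to these data. Python 3.11.15, numpy 2.4.6, pandas 2.3.3, scipy 1.17.1 and matplotlib 3.10.9 were used.

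All members could be named; values are given for the 3 most abundant of each step and the lowest and highest ratio among those with at least 100 UMIs, and likewise for the pathway lists. The members, lists, gates and alternatives were chosen with earlier results of these data known. The alternatives on hsp70 cells and shared barcodes were added after the files were seen.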

Additional observations from a re-analysis of the deposited data

Results flagged for a closer look

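The 2 procollagen processing genes together went opposite ways in 2 cell groups. Their sum had a log2 ratio of mutant over WT of 0.65 in fibrous gene cells, from 95 mutant and 92 WT UMIs, and of -0.74 in matn1-high cells, from 226 and 322 UMIs, with counting intervals on opposite sides of 0. With 1 library per genotype, the difference between the groups was not tested. The sums rest on different genes. In fibrous gene cells pcolcea gave 89.5% of the mutant UMIs and stood at 122 CPM in the mutant and 71.1 CPM in WT, a ratio of 1.72 (1.25 to 2.38), while bmp1a had a ratio of 0.894 (0.366 to 2.07). In matn1-high cells bmp1a gave 92.5% of the mutant UMIs and had a ratio of 0.596 (0.497 to 0.714). The fibrous gene group held 6.21% of mutant and 10.5% of WT cells, and its summed connective tissue markers stood at 3251 CPM in the mutant and 4164 CPM in WT. The part of such a shift in makeup was not tested.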

How the results depend on the processing

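No paired analysis was possible because each genotype was 1 library, and for the same reason no replicate could be left out. Values below are log2 ratios in matn1-high cells, mutant over WT, unless another group is named, in the order hydroxylation, folding, translocon, COPII coat, cargo receptors and whole module as far as they moved beyond counting error. Without ribosomal protein and mitochondrial genes in the scale they were -0.75, -0.52, -0.077, -0.72 (within counting error), -0.65 and -0.29. With matrix genes left out too, folding was -0.60, the translocon -0.16 and the module -0.37. With matn1 bins pooled over libraries, folding was -0.57, cargo receptors -0.68 and the module -0.40. In cells with 0 hsp70 UMIs, folding was -0.58, the translocon -0.13, cargo receptors -0.65 and the module -0.35. With the mean over cells, hydroxylation was -0.96, the translocon -0.26 and the module -0.46. By the median of the genes, the values were -1.23, -0.93, -0.35, -0.66 and, for the module, -0.72. Without the most abundant gene, folding was -1.09, the translocon -0.36, the COPII coat -0.65 and the module -0.56. With equal weight per col2a1a bin, the values were -0.62, -0.37, -0.14, -0.42, -0.38 and -0.26. Hydroxylation, folding, COPII coat and cargo receptors stayed below 0 in these cells under every alternative run.

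The regulators turned from -0.25 to 0.55 without creb3l2 and to 0.035 by the median, which leaves creb3l1 alone or weighs both alike. At 2-fold, 12 members were lower in place of 24, and 1 member was higher by 1.5-fold with pooled bins and on both scales without ribosomal protein genes. For these settings the share of all genes past the fold was not computed. Matn1-high over matn1-low, the module had 0.83 in the mutant with gates of 3 UMIs, 0.69 in the mutant and 0.86 in WT with gates of 10, and 0.75 in WT with pooled bins. It had 0.80 and 0.82 without ribosomal protein genes, 0.97 and 1.07 without matrix genes too, and 0.81 and 0.85 with the mean over cells. Between the highest and lowest col2a1a bin, it had 0.82 and 0.92 per all UMIs, 1.104 and 1.21 thinned, and 0.54 and 0.47 within matn1-high cells.

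Over 8 groups, 10 of 64 step and module ratios turned sign in cells with 0 hsp70 UMIs, 8 of 64 on each of the other scales and 8 of 57 without the most abundant gene. With 0 hsp70 UMIs, those not named elsewhere were regulators in mmp13b cells (0.59 to -0.34, from 4 mutant and 11 WT UMIs) and matn1-middle cells (-0.17 to 0.026), and in ccl25b cells processing (-0.04 to 0.999, from 42 and 17 UMIs) and the translocon (-0.018 to 0.11). Members lower by 1.5-fold there, of fewer measured, were 11 in matn1-low, 6 in fibrous gene, 4 in fn1b and 1 in ccl25b cells, in place of 20, 14, 11 and 7. The share of all genes past that fold in those cells was not computed, so these counts are not read as a result about the members. Of turns from values whose counting interval excluded 0, the translocon step turned in matn1-middle cells to 0.044 with pooled bins, 0.083 and 0.044 on the other scales, 0.027 with TMM scaling and 0.011 with equal weight per bin; in matn1-low cells to 0.047 with gates of 10 UMIs, 0.045 and 0.042 on the other scales and 0.12 with TMM; in fibrous gene cells to 0.023 in cells with 0 hsp70 UMIs; and in mmp13b cells to -0.068 with gates of 10 and -0.039 without sec61g. The module in mmp13b cells turned to 0.021 and 0.0044 on the other scales and 0.043 in cells with 0 hsp70 UMIs, and in ccl25b cells to 0.051 in the last. Without their most abundant gene, the COPII coat in fn1b cells (from -0.61) turned to 0.29, processing in fibrous gene cells to -0.16 and regulators in matn1-low cells to 0.38, and the COPII coat in matn1-low cells (from -0.93) turned to 0.015 by the median. Processing between col2a1a bins in the mutant turned to 0.75 within matn1-high cells. Apart from those that removed genes, cells or weights by construction, the cause was not tested. Depth limits sec23b, sec24c, sec24d, sar1ab and colgalt1 most, since each had under 20 UMIs in matn1-high cells.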
